A study of Mus musculus with 8 samples.

Results

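The olfactory and vomeronasal receptor genes of the mouse were examined as sites of CTCF and cohesin binding in embryonic stem cells. Members were all autosomal genes of the RefSeq table of GRCm38 whose symbol begins with Olfr, Vmn1r, Vmn2r or Taar, 2051 of 46710 autosomal genes in that table. They comprised 1419 Olfr genes (odorant receptors), 366 Vmn1r genes (vomeronasal type 1 receptors), 250 Vmn2r genes (vomeronasal type 2 receptors) and 16 Taar genes (trace amine-associated receptors). Of the 2051, 1469 were protein-coding and 582 were pseudogenes or RNA genes. A further 30 symbols of these families on X, Y or unplaced sequence were left out by the rule. Also left out were 8 genes listed under an autosome at positions in its unsequenced first stretch, which are positions on scaffolds, and not members are 14 autosomal receptor genes that the table lists under older or model symbols. Chromatin immunoprecipitation with sequencing (ChIP-seq) had been done in JM8.N4 cells, a mouse embryonic stem cell line grown without feeder cells in serum and LIF. Wild-type cells (WT) were set beside C59, a knock-in clone of the same line that is homozygous for FLAG-Halo-CTCF and for Rad21-SNAPf-V5, so that every CTCF and Rad21 molecule carries tags. The 2 lines gave 8 libraries, 4 per line (CTCF, Smc3, total input and a control IgG), and peak lists were used for CTCF and Smc3, 4 in all. Each group was 1 library and C59 was 1 clone, so differences between the lines have no replicate check. The lists hold no expression values, so the cell type was not checked by markers.

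Olfactory and vomeronasal receptors are G protein-coupled receptors of sensory neurons in the nose. Their genes stand in long arrays of close relatives that arose by repeated duplication, and many copies have decayed to pseudogenes. An olfactory sensory neuron transcribes a single odorant receptor allele, a choice made late in its development, and the arrays are known as silent, heterochromatic domains in other cells. The zinc finger protein CTCF recognises a long, GC-rich motif at insulators and loop anchors. Smc3 is a core subunit of cohesin, the ring complex that extrudes chromatin loops and stops at bound CTCF. Rad21 is the subunit that closes the ring.

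A gene was counted as having a peak when the summit of a peak lay within 1 kb of either of its annotated ends. Peaks were the authors' calls, and a fold is the authors' own enrichment of a peak over its local background, used here to describe and rank peaks within a list. On the autosomes the CTCF lists held 96324 peaks in WT and 80258 in C59, and the Smc3 lists 46349 and 25400, with median folds of 9.5, 11.2, 5.81 and 5.68. These numbers depend on sequencing depth and on the immunoprecipitation, so a lower count in C59 is given as a count and not as a loss of binding. Where a list has no peak, signal did not reach the threshold of the caller, and weaker binding there is possible. Shares carry exact Clopper-Pearson intervals and densities exact Poisson intervals at 95%, which cover counting error only.

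The upstream windows of receptor genes show what the peak lists found there. RefSeq (GRCm38.p6) gave 1276 promoter windows, from 250 bases before to 50 bases after the annotated start, for 1271 of the members. Only 2 of these windows held a WT CTCF summit, and their 250 upstream bases are printed first, 5′ to 3′ on the gene's strand. Vmn2r29 lies on the minus strand (chr7:7278290-7278539), and the CTCF summit, with folds of 28.9 in WT and 31.4 in C59, stood 212 bases before the start. Olfr479 lies on the plus strand (chr7:108054734-108054983), and its summit, with folds of 6.84 and 5.06, stood 27 bases after the start. Capitals mark matches to AGGNGGC or its reverse complement GCCNCCT, the first 7 letters of the core word AGGNGGCNG of CTCF sites, at 223 and 12 bases before the start. Over the whole window of 300 bases, GC content was 62.3% at Vmn2r29 and 41.3% at Olfr479. The shorter word was chosen after the windows were seen, because the Vmn2r29 window held it and not the full word. It occurred in 29.4% of all 31396 autosomal promoter windows, in 53.6% of those with a WT CTCF summit and in 3.84% of receptor windows, so a match by itself marks no site.
Vmn2r29: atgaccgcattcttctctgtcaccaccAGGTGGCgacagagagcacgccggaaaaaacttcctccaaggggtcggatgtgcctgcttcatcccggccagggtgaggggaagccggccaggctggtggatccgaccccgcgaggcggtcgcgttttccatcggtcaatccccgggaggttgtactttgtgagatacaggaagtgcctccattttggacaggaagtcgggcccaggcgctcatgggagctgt
Olfr479: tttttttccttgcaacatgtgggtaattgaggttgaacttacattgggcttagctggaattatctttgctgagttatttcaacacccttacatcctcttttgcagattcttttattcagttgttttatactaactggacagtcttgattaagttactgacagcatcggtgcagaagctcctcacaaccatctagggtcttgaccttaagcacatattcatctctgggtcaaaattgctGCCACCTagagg

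The other pair of windows comes from an array of 81 type 1 vomeronasal receptor genes in which none of the lists had a peak. Vmn1r95 (chr7:20193460-20193709, plus strand) and Vmn1r242 (chr7:20233829-20234078, minus strand) lie in that array, each with every 50-base word of its window present in another RefSeq promoter window. Capitals mark the 50-base run that was commonest in the array, found unbroken in 21 of its 66 upstream windows. Sequencing reads were 50 bases long, and a read made of these capitals has an exact match in each of those 21 windows.
Vmn1r95: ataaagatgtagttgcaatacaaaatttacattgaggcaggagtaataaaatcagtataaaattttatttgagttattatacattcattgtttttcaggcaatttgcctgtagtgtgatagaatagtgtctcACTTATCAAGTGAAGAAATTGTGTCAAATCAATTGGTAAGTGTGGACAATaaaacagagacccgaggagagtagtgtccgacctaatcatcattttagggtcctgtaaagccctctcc
Vmn1r242: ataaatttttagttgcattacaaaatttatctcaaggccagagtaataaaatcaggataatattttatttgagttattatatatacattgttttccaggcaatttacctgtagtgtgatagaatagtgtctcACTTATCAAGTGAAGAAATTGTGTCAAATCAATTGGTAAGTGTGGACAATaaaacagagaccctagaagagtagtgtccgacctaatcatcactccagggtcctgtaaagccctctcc

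Peaks at receptor genes were rare in every list. A WT CTCF summit lay at an end of 74 of the 2051 members (3.61%, 2.84 to 4.51), whereas 39.9% of the 20556 autosomal protein-coding genes had one. The C59 CTCF list marked 58 members (2.83%, 2.15 to 3.64) beside 34.3% of protein-coding genes. For Smc3 the counts were 24 members in WT (1.17%) beside 21.9%, and 10 in C59 (0.488%) beside 11.8%. Protein-coding members did not stand apart from pseudogenes, with a WT CTCF peak at 53 of 1469 (3.61%) and 21 of 582 (3.61%). No list had a peak at either end of 1976 members (96.3%), and the share of all protein-coding genes without a peak in any list was not counted. A member can have more than 1 peak and neighbours can share a peak. The 74 members with WT CTCF were marked by 76 distinct peaks and the 58 with C59 CTCF by 59.

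**Figure D1:**
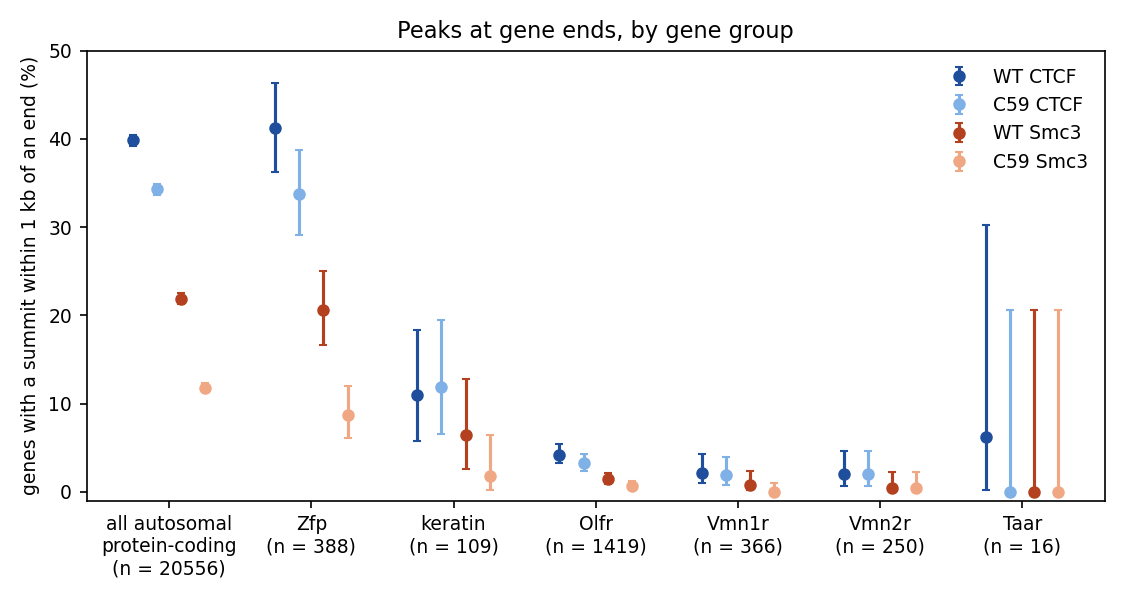
Share of genes with a summit within 1 kb of an annotated end (vertical axis, %) for gene groups (horizontal axis, n genes) and the 4 lists (colours); bars are exact 95% intervals. The Olfr, Vmn1r and Vmn2r points lie below 5% in every list, while WT CTCF stood at 39.9% of all autosomal protein-coding genes; the Taar intervals reach 30.2% because only 16 genes were counted.

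Gene length differs between receptors and other genes, so peaks inside genes were also counted per length. The median member was 945 bp long, compared with 17578 bp for autosomal protein-coding genes. A CTCF summit stood inside 51 members in WT (2.49%) and 38 in C59 (1.85%), and an Smc3 summit inside 17 (0.829%) and 11 (0.536%). The corresponding shares of protein-coding genes were 64.6%, 60.6%, 46.6% and 31.6%. Per Mb of gene, members held 8.06 WT CTCF summits and protein-coding genes 52.3, and for WT Smc3 the values were 2.61 and 22.9. The low count at receptor genes was therefore also seen per length of sequence.

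Odorant receptors, the largest family, gave the largest number of members with a peak at an end. WT CTCF stood at 60 of 1419 Olfr genes (4.23%, 3.24 to 5.41), at 8 of 366 Vmn1r genes (2.19%, 0.948 to 4.26) and at 5 of 250 Vmn2r genes (2.00%, 0.653 to 4.61). C59 CTCF stood at 46, 7 and 5 genes of these families, and the family intervals overlapped in either line. WT Smc3 stood at 20 Olfr, 3 Vmn1r and 1 Vmn2r genes, and C59 Smc3 at 9, 0 and 1. For the 366 Vmn1r genes the count of 0 allows a share of up to 1.00%. One Taar gene of 16 had a WT CTCF peak, and none had a peak of the other lists, which with so few genes allows shares of up to 20.6%.

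Other families with clustered genes were not alike in this respect. WT CTCF stood at an end of 41.2% of 388 Zfp genes (36.3 to 46.3), which encode zinc finger proteins and stand in part in arrays. The interval includes the share of all protein-coding genes. These genes were taken by symbol alone, and those in arrays were not counted apart. Of 109 keratin and keratin-associated genes, which are short, tissue-restricted and clustered, 11.0% (5.82 to 18.4) did, above the receptor interval and below that of all genes. Of 57 clustered protocadherin genes, whose promoters are textbook CTCF sites and many of which share exons, 55 (96.5%) did, and 52 (91.2%) had WT Smc3.

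Some of the members with peaks were strongly bound, but those named here were picked for the highest WT folds. Over all 74 members with WT CTCF the median fold was 7.04, beside 9.5 for all autosomal WT CTCF peaks. For the 24 members with WT Smc3 it was 6.02, beside 5.81. At Olfr1358 (chromosome 10, 78498183 to 78521283) the fold of CTCF was 45.0 in WT and 40.9 in C59 and that of Smc3 9.88 and 7.92, at the 3′ end of the gene. Only 0.772% of the peaks of the WT CTCF list were as strong. The pseudogene Olfr280-ps1 on chromosome 15 had folds of 31.0 and 36.7 for CTCF and 4.84 for WT Smc3, with no C59 Smc3 peak. Vmn2r29, whose upstream window is printed above, had 28.9, 31.4, 16.7 and 8.84 in the same order of lists, the only Vmn2r gene with an Smc3 peak at an end. A pair of pseudogenes had the strongest Smc3 among Olfr genes with Smc3 in both lines, Olfr1542-ps1 on chromosome 10 (17.7 in WT, 8.74 in C59) and Olfr1069-ps1 on chromosome 2 (11.2 and 6.81). Their CTCF folds were 20.9 and 19.2, and 22.6 and 14.9.

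In all 4 lists, 10 members had a peak (the share of all protein-coding genes was not counted). Beside Olfr1358, Vmn2r29, Olfr1542-ps1 and Olfr1069-ps1 these were Olfr225, Olfr1368, Olfr90, Olfr95, Olfr754-ps1 and Olfr1441, named to complete the count. Their WT CTCF folds ranged from 13.7 at Olfr95 to 27.8 at Olfr754-ps1. Olfr90, Olfr95 and Olfr754-ps1 lie on chromosome 17, within one array. The strand was known for 46 of the 74 members with WT CTCF, and the peak was assigned to the start of 16 and to the other end of 30. With a median member length of 945 bp, a summit can lie within 1 kb of both ends. The same split over all genes was not counted, so no preference for an end is read from it.

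Weaker peaks made up the members seen in WT alone. CTCF marked 57 members in both lines, 17 in the WT list alone and 1 in the C59 list alone. The median WT fold was 8.36 at the members of both lines and 4.18 at those of WT alone. The strongest in WT alone were at Olfr905 on chromosome 9 (6.27) and Olfr1382 on chromosome 11 (6.08), both protein-coding odorant receptor genes. Olfr9 on chromosome 10, at the edge of an array, was the member with a C59 CTCF peak alone, at a fold of 3.80. Smc3 marked 10 members in both lines, 14 in the WT list alone and 0 in the C59 list alone. Among all autosomal WT peaks, 79.9% of CTCF and 53.3% of Smc3 peaks overlapped a C59 peak. Those are shares of peaks and not of genes, and the same split over all genes was not counted. Whether calls in WT alone are particular to receptor genes can therefore not be told from these values. Olfr15 (chromosome 16) and Olfr560 (chromosome 7) led the Smc3 peaks of WT alone, with 9.52 and 7.17. Each also had CTCF in both lines, with folds of 24.2 and 12.2 at Olfr15 and 19.6 and 10.8 at Olfr560.

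Few vomeronasal receptor genes carried peaks. The pseudogene Vmn1r-ps51 on chromosome 7 had CTCF folds of 17.9 in WT and 8.98 in C59, and 3.49 for WT Smc3. Vmn1r81, a protein-coding type 1 receptor gene on chromosome 7, had 8.17, 6.33 and 6.01, and the pseudogene Vmn1r-ps126 on chromosome 13 had 7.16, 8.43 and 6.03. Vmn1r-ps106 on the same chromosome had a WT CTCF peak alone (4.11). None of the 8 bound Vmn1r genes had C59 Smc3. The pseudogene Vmn2r-ps13 on chromosome 3 followed Vmn2r29 among type 2 genes, with CTCF folds of 12.9 and 13.1 and no Smc3. Taar8a on chromosome 10 was the Taar gene with a peak, WT CTCF at 4.37.

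Distance to the nearest summit shows how far most receptor genes lie from any call. The median member lay 47.2 kb from a WT CTCF summit, with quartiles of 15.7 and 111 kb, and 94.0 kb from a WT Smc3 summit. The median autosomal protein-coding gene held a WT CTCF summit within its span (distance 0), with an upper quartile of 2.69 kb, and lay 0.410 kb from WT Smc3. Of the members, 571 (27.8%) were over 100 kb from any WT CTCF summit, compared with 4.35% of protein-coding genes. Median distances to WT CTCF were 41.4 kb for Olfr, 61.9 kb for Vmn2r, 74.1 kb for Vmn1r and 8.14 kb for Taar genes. The order of Olfr, Vmn2r and Vmn1r was the same for C59 CTCF, at 58.0, 78.5 and 98.7 kb.

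Receptors often studied on their own show the same range. Olfr17 (P2) lay 51.5 kb from the nearest WT CTCF summit, Olfr16 (MOR23) 85.0 kb, Olfr2 (I7) 30.9 kb, Olfr1507 (MOR28) 52.4 kb and Olfr73 258 kb. Olfr151 (M71), listed in the table as a transcribed pseudogene, was closest among these, at 1.43 kb from a WT CTCF peak of fold 9.69 that had C59 CTCF (10.3) and WT Smc3 (4.26) beside it. Olfr160 in the same array stood 20.2 kb from that peak. Olfr78, an odorant receptor gene also known from oxygen-sensing cells, contained a CTCF summit of fold 19.6 in WT and 10.8 in C59, with WT Smc3 at 7.17. It is the peak counted above at Olfr560, which lies within the annotated span of Olfr78. Among the pheromone receptor genes, Vmn2r26 lay 26.1 kb and Vmn2r116 114 kb from WT CTCF. Taar1, Taar4 and Taar5 lay 9.48, 14.0 and 3.78 kb from weak WT CTCF peaks of folds 3.99 to 4.37. The nearest C59 CTCF peaks, at 21.2, 17.8 and 7.77 kb, had folds of 36.4 to 36.9. WT Smc3 was nearest at 21.3, 17.8 and 7.87 kb, with folds of 7.32 to 16.2. The Taar cluster held 6 WT CTCF summits of median fold 13.6, so stronger WT peaks than the nearest ones stood in it. These values therefore give no contrast of CTCF strength between the lines.

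Joined where neighbours lay within 200 kb of each other, 2004 members formed 83 clusters and 47 stood alone. The clusters spanned 53.5 Mb, 2.23% of the autosomes, and 43 of them held 10 or more members (1818 members in all). Inside clusters there were 9.29 WT CTCF summits per Mb (8.49 to 10.1), 23.2% of the autosomal density of 40.1. C59 CTCF stood at 7.33 per Mb (21.9% of its autosomal density), WT Smc3 at 4.06 (21.0%) and C59 Smc3 at 2.36 (22.3%). The 4 full lists, although they differ in length, gave nearly the same relative density. With the 25734 strongest peaks of each list, CTCF stood lower, at 16.2% in WT and 17.3% in C59. Smc3 then stood at 23.7% in WT and 22.3% in C59. Of the 43 clusters with 10 or more members, 0 were above the autosomal density of WT CTCF, and their median was 8.01 per Mb with a range of 0 to 37.0. Among the 40 smaller clusters 3 were above it, Olfr70 to Olfr155 on chromosome 4 (93.5 per Mb), Olfr1358 to Olfr1357 on chromosome 10 (58.4) and Vmn2r-ps91 to Olfr374 on chromosome 8 (55.8), named after their values were seen.

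**Figure D2:**
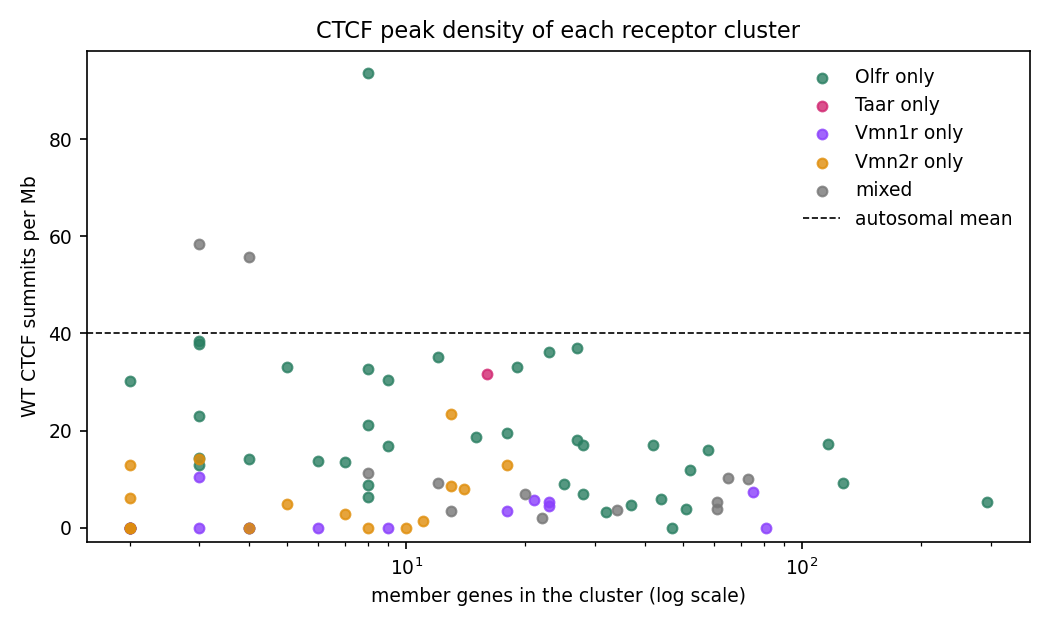
WT CTCF summits per Mb (vertical axis) of each of the 83 clusters against its number of member genes (horizontal axis, log scale), coloured by the families it holds; the dashed line is the autosomal mean of 40.1 per Mb. All 43 clusters of 10 or more members lie below the line, and 3 smaller clusters lie above it.

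Density differed with the size and the family of the cluster. Clusters of 2 to 9 members held 14.1 WT CTCF summits per Mb (11.4 to 17.2), those of 10 to 29 held 12.3 (10.6 to 14.2) and those of 30 or more held 6.77 (5.89 to 7.74). The 41 clusters with Olfr genes alone had 12.2 per Mb (10.9 to 13.6), and the 15 with Vmn2r genes alone 8.43 (6.42 to 10.9). The 14 with Vmn1r genes alone had 2.85 (1.76 to 4.36), below the Olfr and Vmn2r intervals, from 21 summits in 7.37 Mb. Without the array Vmn1r91 to Vmn1r166, which had no summit of any list, the Vmn1r value was 4.98 (3.08 to 7.61), whose interval overlaps that of Vmn2r clusters. That alternative was chosen after the values were seen. C59 CTCF followed the same order, with 9.28, 7.43 and 2.04 per Mb (3.56 without that array), as did WT Smc3, with 4.97, 3.57 and 1.09 (1.90). The single Taar cluster, from Taar1 to Taar9 on chromosome 10, held 6 WT CTCF summits in 0.189 Mb (31.7 per Mb), and its interval of 11.6 to 69.1 includes the autosomal density. On the 15 chromosomes with at least 0.5 Mb of clusters, WT CTCF inside clusters ranged from 11.3% of the autosomal mean on chromosome 2 to 52.3% on chromosome 4.

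The largest array, 293 Olfr genes from Olfr987 to Olfr1274 on chromosome 2 (85330967 to 90401674), held 27 CTCF summits in WT and 18 in C59 and 10 and 6 Smc3 summits in 5071 kb. The 500 kb on its left side alone held 27, 26, 15 and 12 summits, and the 500 kb on its right side 38, 21, 6 and 5. Its longest stretch without a WT CTCF summit was 739 kb. Olfr160 to Olfr986 on chromosome 9, with 127 members, held 23, 13, 9 and 5 summits in 2477 kb. Olfr543 to Olfr650-ps1 on chromosome 7, with 116 members, was denser at 30, 26, 15 and 11 summits in 1730 kb and contained 13 other protein-coding genes. The mixed array Olfr9 to Vmn2r87 on chromosome 10, with 73 members, held 15, 13, 12 and 7, and the Vmn1r array Vmn1r-ps92 to Vmn1r-ps135 on chromosome 13, with 75 members, held 9, 7, 3 and 1.

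**Figure D3:**
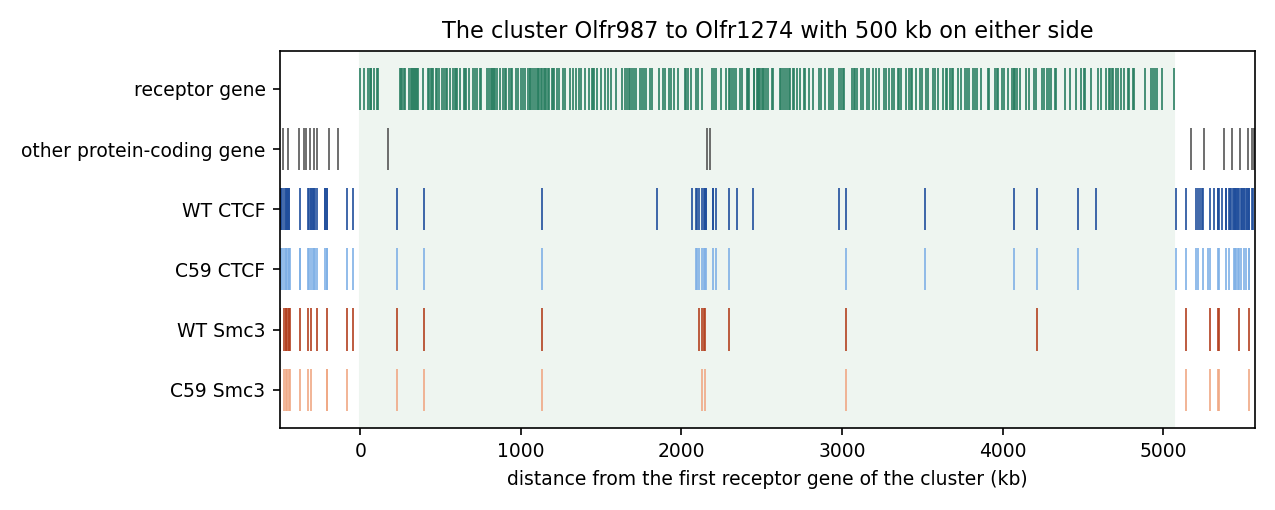
Receptor genes, other protein-coding genes and the summits of the 4 lists (rows of ticks) along the array Olfr987 to Olfr1274, by distance in kb from its first gene; shading marks the array, with 500 kb shown on either side. The 27 WT CTCF summits of the 5071 kb array are as many as those of the 500 kb to its left, and a group of them stands near the 2 other genes in its middle.

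At the other extreme, 3 clusters of 10 or more members had no summit of any list. Vmn1r91 to Vmn1r166 on chromosome 7 (20101158 to 23251682), the source of the printed Vmn1r95 and Vmn1r242 windows, contained 81 Vmn1r genes and 11 other protein-coding gene models in 3151 kb. The WT CTCF summits nearest to it lay 36.9 kb to the left, with a fold of 17.4, and 92.1 kb to the right, with 3.61. Olfr1275 to Olfr1319-ps1 on chromosome 2 (111230853 to 112167982) contained 47 Olfr genes in 937 kb, with WT CTCF summits 75.4 kb to the left (fold 11.4) and 29.1 kb to the right (28.4). The latter place had a peak in all 4 lists, with C59 CTCF at 28.4 and Smc3 at 11.7 in WT and 6.86 in C59. Vmn2r41 to Vmn2r-ps49 on chromosome 7, outside the naming rule and given to complete the count, held 10 Vmn2r genes in 451 kb. The densest large clusters were Olfr1417 to Olfr1441 on chromosome 19 (37.0 WT CTCF summits per Mb, 27 members) and Olfr30 to Olfr311 on chromosome 11 (36.2 per Mb, 23 members).

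Stretches without any call were common in the arrays. Of 104 windows of 500 kb with at least 50% of their length in clusters, 15 (14.4%, 8.30 to 22.7) had no WT CTCF summit, compared with 2.4% of all 4794 autosomal windows. The shares were 17.3% and 3.48% for C59 CTCF, and for Smc3 26.9% and 8.34% in WT and 38.5% and 14.3% in C59. Between neighbouring WT CTCF summits the autosomes had 212 gaps of 500 kb or more, and 18 of these held 526 members (25.6%). The remaining gaps held no member, and of the 10 longest gaps 2 held members. The share of all genes that lie in such gaps was not counted. The longest gap of all, 3280 kb on chromosome 7, was that around Vmn1r91 to Vmn1r166. The next, 3055 kb on the same chromosome, held 43 members from Vmn2r30 to Vmn1r-ps48 and began beyond Vmn2r29.

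Outside the outermost receptor gene the density changed within 25 kb. In the last 25 kb inside the edges, WT CTCF stood at 16.9 summits per Mb (13.0 to 21.5), 42.1% of the autosomal mean, and in the first 25 kb outside at 43.5 (37.3 to 50.4), 108%. Over the 50 kb outside the edges there were 46 WT CTCF summits per Mb (115% of the autosomal mean, 103 to 127), C59 CTCF stood at 118%, and Smc3 at 136% in WT (119 to 156) and 147% in C59 (123 to 175). With clusters joined at 100 kb instead, WT and C59 CTCF outside the edges stood at 96.3% and 99.5%, on the other side of the mean. Farther out WT CTCF was higher still, at 155% between 250 and 275 kb, so the border zone was not a local maximum of WT CTCF. For Smc3 the first 25 kb outside held 150% in WT and 180% in C59, and the next 25 kb 123% and 114%. The 180% was the highest of the 12 steps outside for C59 Smc3, whereas WT Smc3 reached 161% farther out. The 50 kb outside held 34.8 ends of non-receptor genes per Mb, the autosomes 15.9 and the clusters 4.75, and the part of gene density in these values was not tested.

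**Figure D4:**
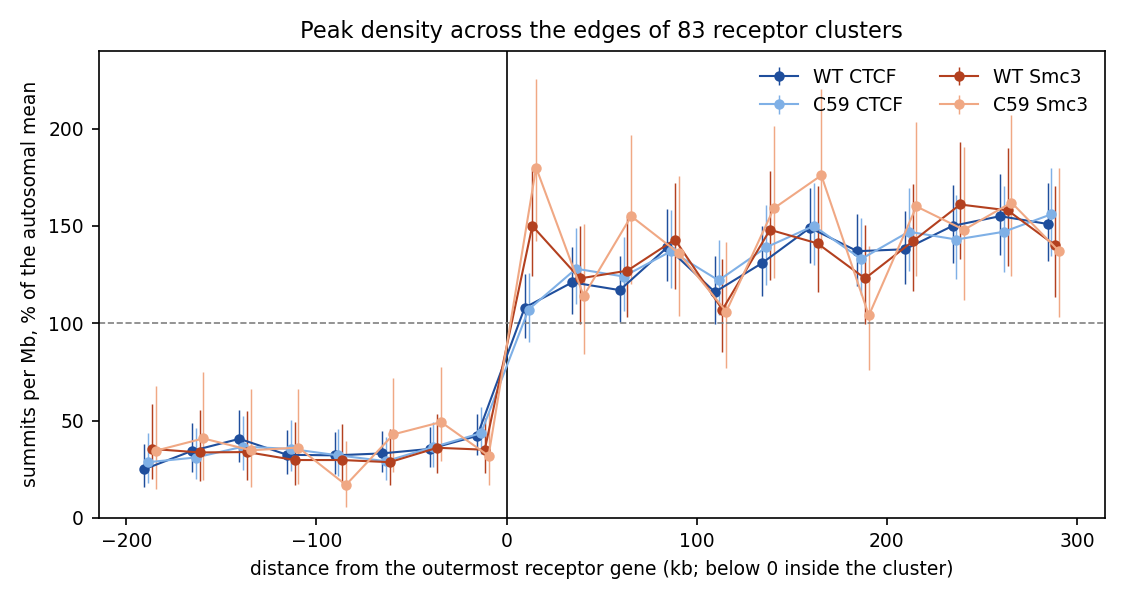
Summits per Mb as a percentage of the autosomal mean (vertical axis) in steps of 25 kb across the edges of the 83 clusters (horizontal axis, kb; below 0 is inside), for the 4 lists; bars are exact 95% intervals. All lists lie under 50% inside the edge, and for WT CTCF the value goes from 42.1% in the last step inside to 108% in the first step outside.

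Counted by border, 122 of 162 (75.3%, 67.9 to 81.7) had a WT CTCF summit within 50 kb outside, compared with 63.3% of all autosomal windows of 50 kb. C59 CTCF was found at 115 (71.0%) beside 59.1% of windows, WT Smc3 at 98 (60.5%) beside 45.9%, and C59 Smc3 at 73 (45.1%) beside 33.1%. The lower bound of each border interval lay above the share of windows. The 50 kb inside the edge had a WT CTCF summit in 64 of 166 cases (38.6%). The median distance from an edge to the nearest WT CTCF summit outside was 22 kb, with quartiles of 9.19 and 50 kb. Both borders had WT CTCF within 50 kb at 49 of the 83 clusters, and C59 Smc3 at 20.

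The strongest peaks inside clusters and at their borders were picked by their fold, so a high rank in the lists follows from the choice. Inside clusters, WT CTCF was highest 4308 bp from Olfr1421-ps1 on chromosome 19 (12015400 to 12016237), with folds of 46.4 and 47.6 for CTCF and 11.2 and 8.23 for Smc3 in WT and C59. The next was at Tcaf2 on chromosome 6, 443 bp from this gene of another family and 75852 bp from the nearest receptor, with 45.4 and 49.0, and the third that of Olfr1358. WT Smc3 was highest inside Vmn2r-ps23 on chromosome 5 (109596387 to 109597185), at 19.6 with CTCF at 30.8. At borders, WT CTCF reached 46.6 next to Rasl2-9 on chromosome 7, 20507 bp from Vmn1r55, and 46.3 at 31080 bp from Vmn2r-ps62 on the same chromosome. WT Smc3 reached 18.6 at 20105 bp from Olfr62 on chromosome 4, where C59 Smc3 had 15.2.

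Other protein-coding genes inside the clusters carried CTCF peaks more often than the receptor genes around them. There were 124 in 39 clusters, 3 of them formyl peptide receptor genes, after 5 receptors listed under older or model symbols had been set aside. WT CTCF stood at an end of 23 (18.5%, 12.1 to 26.5), compared with 39 of the 1096 protein-coding receptor genes of the same clusters (3.56%, 2.54 to 4.83). Both shares lay below the 39.9% of all autosomal protein-coding genes. C59 CTCF stood at 16.1% and 2.74%, and Smc3 at 8.06% and 1.00% in WT. For C59 Smc3 the values were 2.42% (0.502 to 6.91) and 0.456% (0.148 to 1.06), and these intervals overlap. Among the 93 with a gene name rather than a model number, 21 (22.6%) had WT CTCF, and among the 31 numbered models 2 (6.45%), a split made after the values were seen. Per length, the bodies of these other genes held 28.8 WT CTCF summits per Mb (21.3 to 38.2), receptor bodies 8.16 (6.27 to 10.4) and the sequence between genes 8.76 (7.90 to 9.67). Within 10 kb of the ends of other genes the clusters held 29.4 per Mb (24.1 to 35.6), and farther away 7.85 (7.10 to 8.67), still 19.6% of the autosomal mean.

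Of the peaks inside clusters, about as many were found again in the tagged line as elsewhere. For CTCF, 382 of 497 WT peaks (76.9%, 72.9 to 80.5) overlapped a C59 peak, compared with 79.9% of all autosomal WT peaks and 79.7% at the folds of the cluster peaks. For Smc3 it was 122 of 217 (56.2%, 49.3 to 62.9), compared with 53.3% and, at the same folds, 59.1%. WT CTCF cluster peaks found in C59 had a median fold of 12.8 and the others 4.37. In the other direction, 97.4% of the 392 C59 CTCF peaks and 97.6% of the 126 C59 Smc3 peaks in clusters overlapped a WT peak. The autosomal shares lay within the intervals of the clusters.

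Smc3 inside the clusters coincided with CTCF. Of 217 WT Smc3 peaks 213 (98.2%, 95.3 to 99.5) overlapped a WT CTCF peak, and all 126 of the C59 Smc3 peaks overlapped a C59 CTCF peak, compared with 95.1% and 97.9% of autosomal Smc3 peaks. Of WT CTCF cluster peaks 42.5% overlapped Smc3 (autosomes 44.4%), and of C59 CTCF cluster peaks 31.9% (30.4%). The CTCF peaks with Smc3 had a median fold of 20.1 in WT, and those without it 5.52. Median folds of all cluster peaks were 8.89 for WT CTCF and 6.49 for WT Smc3, beside 9.5 and 5.81 on the autosomes. The tenth of each CTCF list with the highest folds held 33 of the 497 cluster peaks in WT (6.64%) and 27 of the 392 in C59 (6.89%).

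The promoter windows of receptor genes were poor in G and C. Their median GC content was 35.7%, compared with 53.0% over all 31396 autosomal windows and 61.0% over the 2261 windows with a WT CTCF summit. A WT CTCF summit stood in 2 receptor windows (0.157%, 0.0190 to 0.565) and in 7.2% of all windows. The core word AGGNGGCNG, searched on both strands, was found in 13 receptor windows (1.02%), all of Olfr genes, and in 15.4% of all windows. Among windows of at most 40% GC, 0 of 1011 receptor windows (up to 0.364%) and 34 of 2326 other windows (1.46%, 1.01 to 2.04) held a summit, and the word was in 0.396% and 2.32%. These 2 sets were not matched, with a median GC of 34.3% in receptor and 37.3% in other windows. At least 50% of the 50-base words recurred in another window in 9.5% and 3.83% of them. A match is a description of letters, and no match says only that these letters were not in the window. Annotated starts of many receptor genes may lie at the coding sequence, so these windows need not be the promoters used in neurons.

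Repeated sequence was measured because short reads from it cannot be placed at 1 copy, and the sources used here do not give how such reads were treated. For each window the share of its 50-base words that occur in another promoter window was taken. The mean was 2.96% for Olfr, 0.833% for Taar, 26.3% for Vmn2r and 35.8% for Vmn1r windows, beside 2.95% over all windows. Of 952 members without any repeated word, 39 (4.10%, 2.93 to 5.56) had WT CTCF at an end, of 208 with under 50% repeated words 7 (3.37%), and of 111 with 50% or more 0 (up to 3.27%). In the last set C59 CTCF marked Olfr9 alone. The measure covers these 300 bases alone.

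The clusters without a call were not alike in repetition. In the array Vmn1r91 to Vmn1r166 the mean share of repeated words was 93.1%, and 63 of 66 windows were repeated over at least 50% of their words. In Vmn2r41 to Vmn2r-ps49 it was 79.8%, and in Olfr1275 to Olfr1319-ps1, equally without a summit, it was 1.18%. Of the 42 larger clusters with enough windows, 26 had a mean under 5%, and their median was 9.78 WT CTCF summits per Mb with a range of 0 to 37.0. The 12 clusters between 5% and 30% had a median of 8.04 and the 4 at 30% or more a median of 1.74, with 2 of the 4 empty. The share of repeated words in promoter windows says nothing of the sequence between genes, and the part of read placement in the empty stretches was not tested.

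**Figure D5:**
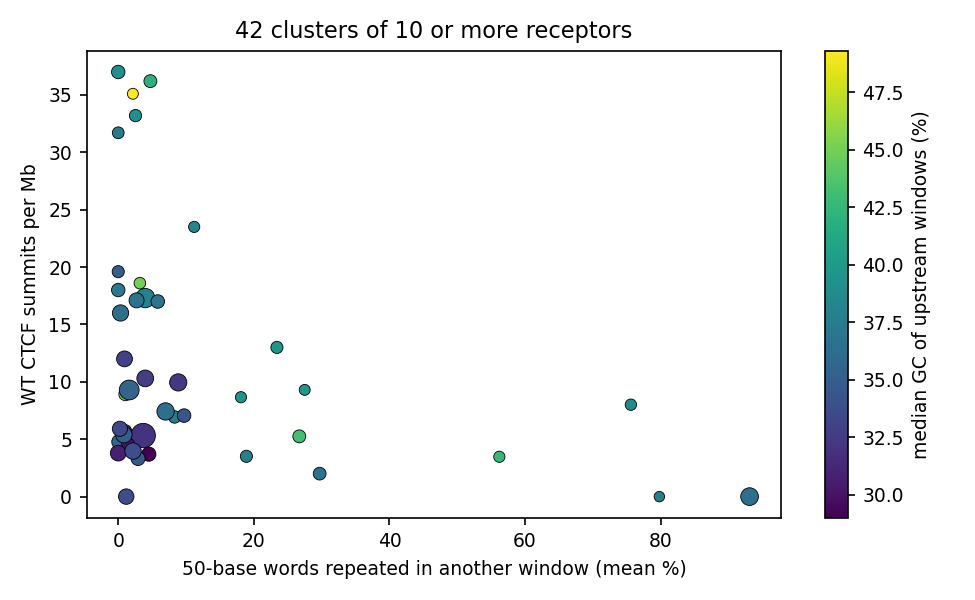
WT CTCF summits per Mb (vertical axis) against the mean share of 50-base words of upstream windows that recur in another window (horizontal axis, %) for 42 clusters of 10 or more members; colour is the median GC content of the windows and the area of a point grows with the number of members. The 2 points at the far right without summits have means of 93.1% and 79.8%, and the empty cluster at the far left has 1.18%.

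A list of 30 genes outside the families, linked to olfactory or vomeronasal neurons, was looked up. It held signalling proteins, factors of receptor transcription and choice, neuron markers and 7 formyl peptide receptor genes. WT CTCF stood at an end of 8 of them, C59 CTCF at 6, WT Smc3 at 2 and C59 Smc3 at 1, against backgrounds of 39.9%, 34.3%, 21.9% and 11.8% of autosomal protein-coding genes. Each count lies below that share of 30 genes, and nothing particular to the list is read from so few. Ebf1, a transcription factor that binds odorant receptor promoters, had 46.5, 44.3, 30.6 and 15.9 in the order of the lists, and Kdm1a, a histone demethylase needed for receptor choice, had 40.3 and 50.6 for CTCF. Gnai2, the G protein subunit of neurons with type 1 vomeronasal receptors, had 10.1 and 14.6. Gnal, the olfactory G protein subunit, had 5.70 and 6.96, Ncam2 5.05 and 5.39, and Ldb1, a cofactor of the LIM factor Lhx2, 4.17 and 5.06. Omp, the marker of mature olfactory neurons, and Adcy3, their adenylyl cyclase, had weak WT CTCF peaks alone, at 4.18 and 3.70, and Emx2 a WT Smc3 peak at 3.68. None of the 7 formyl peptide receptor genes (Fpr), some of which are expressed in the vomeronasal organ, had a peak (WT CTCF background 39.9%), nor did Trpc2, the ion channel of that organ, or Cnga4 and Cngb1, channel subunits of olfactory cilia.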

How the data were processed

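ChIP-seq peak lists of 4 libraries (CTCF and Smc3 in WT and C59) were used, and the input and IgG libraries were not used here. Each list was called on 1 library as far as its labels say. The build mm10 and the tools MACS2 2.1.0.20140616, Bowtie 0.12.8, deepTools 2.4.1, CASAVA and FastQC 0.10.1 are listed, without roles, per the submitters' processing notes. The control library, threshold, duplicate filter and treatment of reads with several placements are not given in the sources used here. The lists have the column layout of a MACS2 table. The pileup signal at each summit, its p-value and q-value (deposited as linear values, with −log10 computed here for the stricter threshold), the fold enrichment (a ratio over local background) and the peak length and summit position are the authors' deposited values. For the Smc3 libraries the antibody label was followed, although the extraction protocol speaks of anti-Rad21. Reads were single-end and 50 bases long, per the labels.

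Gene positions and promoter windows came from RefSeq tables of GRCm38.p6, the assembly of mm10. The table gives 328 genes, 8 of these families, positions under 3000000 on an autosome, before the first sequenced base and all peaks; these are scaffold positions, and the genes were left out, a correction made after the values were seen. A summit within 1 kb of an annotated end, or inside the gene, was assigned to it. Clusters were runs of at least 2 members with gaps of at most 200 kb, border zones the 50 kb outside their edges. Peaks were shared at an overlap of at least 1 bp. With 1 library per group no test was made and no value has a standard deviation; depth limits what a list can show, and read totals are not in the lists. Calculations used Python 3.11.15, numpy 2.4.6, pandas 2.3.3, scipy 1.17.1 and matplotlib 3.10.9, and the counting was tested on simulated peaks.

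Members, gene lists and alternatives were chosen with earlier results of these data known. Named genes were, per family and protein, the 2 members (or fewer) of highest WT fold marked in both lines, and likewise in 1 line alone. Added to these were the 6 largest clusters, the 2 densest and 2 sparsest with 10 or more members, the 3 strongest peaks inside clusters and at borders, and 13 receptors listed by name. A planned comparison of protein sequences was not run, since no protein table was used here. Alternatives covered the end window, the q-value threshold, equal peak numbers, the gap, cluster size, the border width, the overlap and leaving out chromosomes 1, 8 and 11, set apart in the earlier results for a raised background. Leaving out the Vmn1r cluster of most genes was added after the values were seen.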

Additional observations from a re-analysis of the deposited data

How the results depend on the processing

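Of 97 values under alternative settings, 60 stayed within the 95% interval of the value reported and 37 did not. The cause of these shifts was not tested beyond what each setting does by construction. For receptor genes with a peak at an end (WT CTCF, C59 CTCF, WT Smc3, C59 Smc3), a window of 2500 bp gave 6.68%, 5.22%, 2.63% and 1.27%, beside 59.1%, 53.2%, 36.5% and 21.9% of autosomal protein-coding genes. A window of 10000 bp gave 18.3%, 14.8%, 10.1% and 6.09%, beside 81.1%, 78.1%, 65.6% and 48.2%. With q-values of at least 10 on the −log10 scale the CTCF shares were 2.73% and 2.1%, beside 33.0% and 28.7% of protein-coding genes. With the 25734 strongest peaks of each list they were 0.341% and 0.439%, and 0.585% for WT Smc3, beside 14.1%, 13.5% and 11.1%. Relative to the autosomal mean, density inside clusters with neighbours within 500 kb was 34.6%, 34.0%, 33.6% and 35.4%. With neighbours within 100 kb it was 20.7%, 18.9% and 17.6% (all but C59 Smc3). With equal peak numbers it was 16.2% and 17.3% for CTCF, while Smc3 stayed within its intervals at 23.7% and 22.3%. Border zones at 100 kb neighbours stood at 96.3%, 99.5% and 113%. Equal peak numbers gave 129% and 136% for CTCF there, and a 20 kb zone 181% for C59 Smc3. WT peaks found again in C59 were 80.6% (CTCF) and 46% (Smc3) at the stricter q-value, and 87.0% and 78.4% with equal peak numbers. When an overlap had to cover 50% of both peaks, Smc3 peaks met CTCF in 85.7% (WT) and 69.8% (C59) of cases, and CTCF peaks met Smc3 in 37.4% and 22.4%. Density inside Vmn1r clusters was 4.98 WT CTCF summits per Mb without the largest of them. Density inside clusters was run under the stricter q-value, equal peak numbers, chromosomes left out, both other gaps and clusters of 5 or more, and stayed below the autosomal mean in each. No paired analysis was possible because each group had 1 library. The lists hold no read totals, so depth behind a missing peak is unknown.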
